A study of Mus musculus with 9 samples.

Results

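Abl.1 is an immortalised B cell line that was cloned from the cells of a hybrid mouse. The animal was a female F1 of the strains 129S1/SvImJ and CAST/EiJ. All libraries come from this 1 clone, and reads of the 2 parental alleles are not told apart here. Methylation was compared between 2 libraries of cells grown for 2 days in medium with 1% DMSO, the solvent, and 2 libraries of cells grown for 2 days with 0.2 µM 5-aza-2'-deoxycytidine (5-aza-dC), which was dissolved in DMSO. In both groups only live cells, recovered by density centrifugation, were used. These 4 libraries are part of a series of 9. The 2 replicates of a group are labelled as library preparations, with no word on whether the cultures were separate. The p-values below therefore measure only the spread between these libraries, which may be technical.

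The assay was reduced representation bisulfite sequencing (RRBS), which reads methylation at cytosines of CpG dinucleotides near the cutting sites of a restriction enzyme and so favours CpG-rich DNA. The level of a CpG is the share of its reads that are methylated. The 4 libraries held between 9422745 and 16495423 CpG reads. CpGs with at least 5 reads in each of the 4 libraries numbered 550762 of the 2714045 listed in any library of the series. Tiles of 1 kb with at least 10 reads in each numbered 76071 of 441418. A level over a tile, window or gene is the methylated reads over all reads in it. At a level between 0 and 100%, cells that lost the mark at all molecules and cells that lost it at some of them cannot be told apart.

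5-aza-dC is a cytidine analogue that is built into newly made DNA, where it traps DNA methyltransferases. The maintenance enzyme DNMT1 then fails to copy methylation onto the new strand, and the mark is diluted as cells divide. In mammalian cells most CpGs are methylated in gene bodies and between genes, whereas CpG islands at gene starts are mostly free of the mark, except at germ cell genes, imprinted loci and, in females, islands on the inactive X chromosome.

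The sequences that follow show how crowded with CpGs the measured sites were, since the loss differed with that crowding. Each is 52 bases of RefSeq promoter sequence (mm10) on the strand of the gene, wholly upstream of its start, with every CpG in capitals. The measured CpG is in the middle. One was taken at each of 4 counts of CpGs per 52 bases (1, 4, 7 and 10), as the CpG with the most reads in its least covered library among those at 80% or above in both DMSO libraries.
Epcam: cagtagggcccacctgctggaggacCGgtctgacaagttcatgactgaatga
Prph: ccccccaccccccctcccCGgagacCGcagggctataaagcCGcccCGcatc
Adgrg6: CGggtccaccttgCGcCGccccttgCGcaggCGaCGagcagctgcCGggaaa
Gm20684: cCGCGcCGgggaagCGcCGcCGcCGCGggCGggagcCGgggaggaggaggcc

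The Epcam site (chr17:87635782-87635833, plus strand, upstream of an epithelial adhesion gene) held 1 CpG. In DMSO 11 of 11 and 9 of 10 reads were methylated there, and at 0.2 µM 4 of 11 and 6 of 17. Summed over libraries, 95.2% in DMSO (95% Wilson interval 77.3 to 99.2) became 35.7% (20.7 to 54.2). The Prph site (chr15:99055110-99055161, plus strand), upstream of the gene for the neuronal filament protein peripherin, held 4 CpGs and went from 93.5% (79.3 to 98.2) to 43.8% (28.2 to 60.7). At the Adgrg6 site (chr10:14545071-14545122, minus strand), with 7 CpGs upstream of an adhesion receptor gene, the summed level went from 97.2% (85.8 to 99.5) to 73.3% (59.0 to 84.0). The Gm20684 site (chr7:65862046-65862097, minus strand), with 10 CpGs, went from 92.6% (76.6 to 97.9) to 80% (62.7 to 90.5), and these intervals overlap. Intervals cover counting error only, since PCR copies were not separated.

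A methylated and an unmethylated promoter are shown to place these sites in whole promoters. Both are the 250 bases before the gene start, with CpGs in capitals. Hormad1 encodes a protein of meiotic chromosomes and is normally silent outside germ cells. Tcf3 encodes E2A, a transcription factor needed for B cell development.
Hormad1: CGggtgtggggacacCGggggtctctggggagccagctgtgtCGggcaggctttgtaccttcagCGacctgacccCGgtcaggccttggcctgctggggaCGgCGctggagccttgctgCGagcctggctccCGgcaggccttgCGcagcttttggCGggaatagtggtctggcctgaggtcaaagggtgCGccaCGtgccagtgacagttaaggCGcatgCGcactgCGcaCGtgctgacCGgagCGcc
Tcf3: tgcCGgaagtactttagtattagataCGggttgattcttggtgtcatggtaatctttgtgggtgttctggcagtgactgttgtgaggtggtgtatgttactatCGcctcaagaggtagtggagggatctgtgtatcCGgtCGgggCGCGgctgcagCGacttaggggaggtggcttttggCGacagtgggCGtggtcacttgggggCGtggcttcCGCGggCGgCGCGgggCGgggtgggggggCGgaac

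The Hormad1 stretch (chr3:95559427-95559676, plus strand) held 19 CpGs. Over the 8 CpGs of its promoter with at least 5 reads in every library, the level was 89.6% and 86.4% in DMSO and 46.8% and 54.4% at 0.2 µM. Both treated libraries lay far below both controls. The Tcf3 stretch (chr10:80433636-80433885, minus strand) held 18 CpGs and was unmethylated throughout. Over 21 CpGs its promoter read 0.446% and 0% in DMSO and 0% in both treated libraries.

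Across all 550762 CpGs the mean level was 18.2% and 18.4% in DMSO and 8.81% and 8.90% at 0.2 µM. The groups did not overlap, and the difference of -9.48 points was far above the spread within groups (SD 0.141 and 0.0627, n = 2 each). With 2 libraries against 2, the exact two-sided permutation test cannot give a p below 0.33, which is the value found here and for every mean level below. Over the 76071 tiles the mean fell from 54.3% and 54.7% to 21.6% and 21.8%. The CpG mean depended on the read minimum: the same difference was -22.5 points with a minimum of 1 read, -3.12 with 10, -1.31 with 20, and -3.19 when CpGs were weighted by reads. The tile difference was -32.8 points, and -13.8 with a minimum of 40 reads.

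The loss reached almost every methylated tile but seldom emptied one. Tiles were classed by DMSO replicate 1, so that DMSO replicate 2 gave an unbiased starting level. Of 29759 tiles at 80% or above, the mean was 89.9% in DMSO replicate 2 and 35.2% and 35.6% at 0.2 µM. The treated tiles had a median of 33.3% in both libraries, with the 5th and 95th percentiles at 11.5% and 66.7% in replicate 1 and at 12.5% and 66.0% in replicate 2. Only 0.830% and 0.763% of them were still at 80% or above, against 86.9% in DMSO replicate 2. A level under 10% was reached by 3.61% and 3.04%.

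The retained share is the 0.2 µM level as a percentage of the DMSO level. It was 39.4% ± 0.290 (SD, n = 2) in tiles that started at 80% or above, 39.9% ± 0.205 in those at 60 to 80%, 38.7% ± 0.439 at 40 to 60% and 39.6% ± 0.0149 at 20 to 40%. In proportion, tiles of these 4 starting levels kept between 38.7% and 39.9%. In tiles at 5 to 20% it was 43.3% ± 0.219. Tiles under 5% averaged 1.29% in DMSO and 0.706% and 0.709% at 0.2 µM.

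Tiles were tested with a binomial model whose dispersion was moderated with limma, at a Benjamini-Hochberg adjusted p under 0.05. At 0.2 µM 49988 tiles were lower, which is 65.7% of those tested, and 48 were higher, which is 0.0631%. In gene bodies 12856 of 14894 were lower (86.3%) and 17 higher (0.114%). Windows reached 1 kb to each side of a gene start, and 7343 of 20403 were lower (36.0%) and 13 higher (0.0637%). Where the RefSeq table gave no strand, both gene ends were used in place of the start. Tested against the median change instead of 0, a median that lay at -1.78 on the log odds scale for tiles, the calls split into 9321 tiles that lost more and 3410 that lost less. For windows the calls were 2653 and 182 around a median of -0.798, and for gene bodies 2921 and 3030 around -1.99. Of the 20403 windows, 11009 were under 10% in both DMSO libraries and had little methylation to lose.

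CpG density set the tiles apart. Density is the number of CpG positions per tile listed in any of the 9 libraries, so it counts CpGs that RRBS can reach and not all CpGs. The 8224 methylated tiles (80% or above in DMSO replicate 1) with 1 to 5 CpGs went from 90.2% in DMSO replicate 2 to 31.4% and 32.1%. Those with 21 to 40 CpGs (2499 tiles) went from 89.3% to 43.2% and 43.1%. The 380 tiles with 71 or more CpGs went from 89.7% to 64.9% and 65.2%. Both treated libraries rose from class to class, and no class overlapped the next.

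The retained share climbed from 35.2% ± 0.498 in the sparsest class through 37.2%, 40.2%, 48.3% and 63.0% to 72.5% ± 0.240 (SD, n = 2) in the densest, a difference of 37.3 points. Over 5 classes of equal tile number the difference was 14.7 points. With the class set by DMSO replicate 2 the difference was 37.5 points. Dense tiles also had more reads: over all tiles tested, the least covered library had a median of 14 reads with 1 to 5 CpGs and 704 with 71 or more. Within tiles of 40 to 80 mean reads the shares were 36.4% with 1 to 5 CpGs, 47.7% with 21 to 40 and 61.9% with 41 to 70. Within tiles of 80 to 160 mean reads they were 39.9% with 6 to 10 CpGs, 46.8% with 21 to 40, 62.2% with 41 to 70 and 69.7% with 71 or more, the last from 11 tiles. The few sparse tiles that were read this deeply did not follow the order, since 22 tiles with 1 to 5 CpGs and 80 to 160 mean reads kept 49.8%, and 18 tiles with 6 to 10 CpGs and at least 160 kept 60.6%.

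Around single promoter CpGs, where the sequence itself could be counted, the gradient was steeper. Of 90658 CpGs in RefSeq promoters with at least 5 reads in each library, 2313 were at 80% or above in DMSO replicate 1. The 53 with no other CpG within 25 bases on either side went from 85.4% in DMSO replicate 2 to 25.8% ± 0.581 (SD, n = 2). The 256 with 4 CpGs in the 52 bases went from 87.6% to 46.0% ± 1.60, the 252 with 7 from 90.5% to 62.7% ± 1.40, and the 151 with 10 from 89.6% to 68.4% ± 2.10. The 4 sites printed above were picked without their 0.2 µM values and lie in this order. In CpGs with a mean of 10 or more reads the retained share was 42.0% with 1 to 3 CpGs, 56.8% with 4 to 6, 70% with 7 to 9 and 76.5% with 10 to 15.

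**Figure D1:**
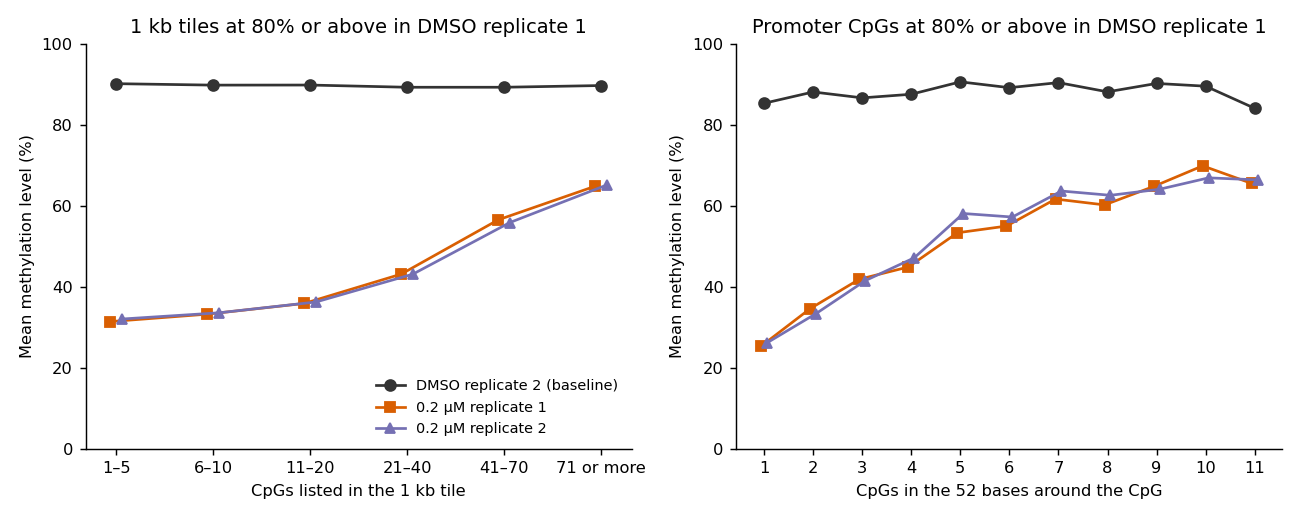
Mean methylation level (%, vertical axis) of methylated 1 kb tiles by the number of CpGs listed in the tile (left) and of methylated promoter CpGs by the number of CpGs in the 52 bases around them (right). Members were at 80% or above in DMSO replicate 1, and points are the means of DMSO replicate 2 and of the 2 libraries at 0.2 µM. In tiles the DMSO line stays near 90% while the mean of the treated lines climbs from 31.7% to 65.0%. Around promoter CpGs the DMSO line lies between 84.1% and 90.6%. The treated mean there climbs from 25.8% with 1 CpG to 68.4% with 10, and is 66.0% with 11.

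The bases next to a promoter CpG went with smaller differences once crowding was held fixed. Methylated CpGs in GCGC were at a level of 61.3% at 0.2 µM (365 CpGs), against 48.5% in CCGG (320 CpGs), the site cut by MspI, the enzyme commonly used in RRBS. Among CpGs with 5 to 8 CpGs in the 52 bases these levels were 61.6% ± 0.469 (186 CpGs) and 57.7% ± 0.248 (121 CpGs). TCGA, with the lowest level over all CpGs (40.9%, 32 CpGs), had 10 CpGs in that range, at 56.7%.

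Levels and losses also differed with position in the gene. Tiles at gene starts averaged 20.9% and 21.2% in DMSO and 10.7% and 10.8% at 0.2 µM, and 28.6% of them were called lower. At 3′ ends the means were 67.2% and 67.6% against 23.2% and 23.5%, in gene bodies 66.1% and 66.4% against 24.1% and 24.3%, and outside genes 66.5% and 67.0% against 27.9% and 28.1%. Between 78.7% and 79.8% of the tiles in these 3 places were lower. Gene starts had the lowest levels. Among tiles at 80% or above in DMSO replicate 1 the retained share was 50.0% ± 0.190 at gene starts, 36.3% ± 0.296 in bodies, 34.0% ± 0.445 at 3′ ends and 43.9% ± 0.318 outside genes (SD, n = 2 each).

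The order of the places changed with density. In tiles with 1 to 5 CpGs the retained share was 35.9% at gene starts, 33.7% in bodies, 33.1% at 3′ ends and 38.3% outside genes. At 21 to 40 CpGs it was 55.3% at starts, 43.3% in bodies, 36.7% at 3′ ends and 57.2% outside genes, and at each density up to there tiles outside genes lay above gene starts. In tiles with 71 or more it was 74.3% at starts (177 tiles) and 69.9% in bodies (128 tiles). At 41 to 70 CpGs starts kept 68.8% ± 0.557 and bodies 58.3% ± 0.185, with 64.4% outside genes. No test of place within density was run.

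CpGs aligned to gene starts of known strand showed where this lay. From 250 bases upstream to the start, the mean was 5.23% in both DMSO libraries and 3.20% ± 0.0176 at 0.2 µM, the lowest of the profile in both groups. Between 2 and 5 kb upstream it was 32.4% in both controls and 12.6% ± 0.0640. Methylated CpGs (80% or above in DMSO replicate 1) peaked in retention just inside the gene: 558 CpGs at 1 to 2 kb upstream kept 37.3% ± 0.229, 2374 CpGs at 250 to 500 bases downstream kept 66.1% ± 0.181, and 3622 CpGs at 2 to 5 kb downstream kept 44.9% ± 0.0688.

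**Figure D2:**
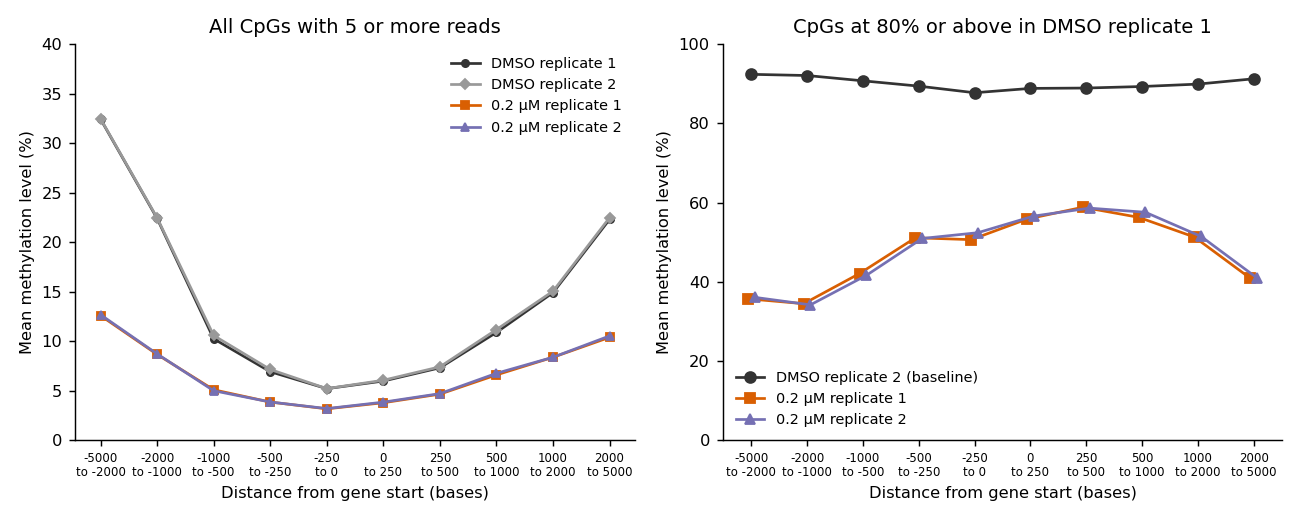
Mean methylation level (%) by distance from the gene start in bases (horizontal axis, upstream negative) for all CpGs in each of the 4 libraries (left) and for CpGs at 80% or above in DMSO replicate 1 (right, DMSO replicate 2 as baseline). In the left panel all libraries dip at the start, from 32.4% to 5.23% in DMSO and from 12.6% to 3.20% at 0.2 µM. In the right panel the treated lines rise to 58.7% between 250 and 500 bases inside the gene.

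Genes whose start had little methylation in DMSO lost more along their bodies. Bodies are CpGs inside a gene and more than 1 kb from any gene end, and only protein-coding genes with at least 20 reads in each library in both body and start window entered here. Where the start window was under 10% in DMSO, 1765 methylated bodies went from 91.2% to 28.5% and 28.8%. Where the start window was at 80% or above, 154 bodies went from 87.4% to 41.2% and 42.1%. The classes between them lay in order, at 33.0% and 38.6%. Split into 5 equal classes of listed CpGs per kb, bodies behind a start under 10% stayed between 27.4% and 30.5%, while those behind a start of at least 50% lay between 33.9% and 37.2% in the first 4 classes and at 48.6% in the densest.

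Gene-poor DNA kept more. Among methylated autosomal tiles with 1 to 20 CpGs, those in megabases with 0 to 2 protein-coding genes (2674 tiles) went from 87.1% to 40.4% and 41.2%. Those with 11 to 20 genes per megabase (7190 tiles) went from 90.3% to 31.4% and 32.0%, and those with 41 or more (1616 tiles) from 91.5% to 29.2% and 29.1%. Inside gene bodies the level fell from class to class, from 38.4% to 28.3%. Outside genes it fell from 42.4% to 34.3% at 11 to 20 genes and stayed near there, at 34.1% in the last class (171 tiles). Over 906 megabases with at least 10 such tiles, the treated level ran from 26.4% to 41.5% between the 5th and 95th percentiles. The 2 treated libraries correlated over these megabases (Pearson r = 0.762), whereas the DMSO replicate 2 level and the treated level did not (r = -0.0213). These are descriptions over regions measured in the same libraries. By chromosome, the retained share of methylated tiles ran from 34.5% on chromosome 11 and 34.7% on chromosome 19 to 42.6% on chromosome 1 and 48.5% on the X.

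**Figure D3:**
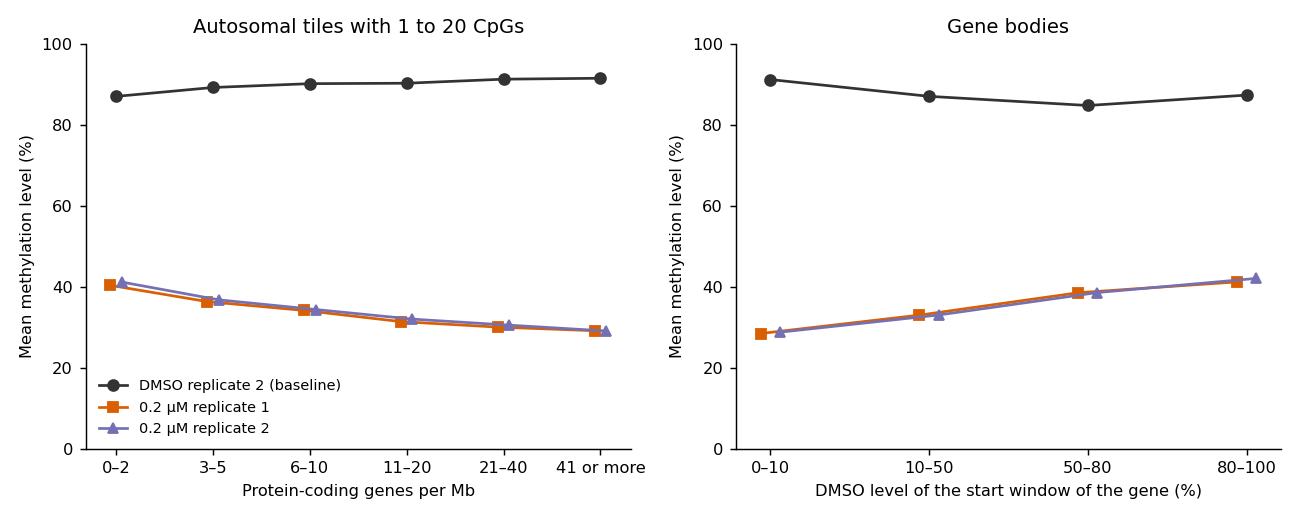
Mean methylation level (%) of methylated autosomal tiles with 1 to 20 CpGs by protein-coding genes per megabase (left) and of methylated gene bodies by the DMSO level of the start window of the same gene (right). Points are DMSO replicate 2 (baseline) and the 2 libraries at 0.2 µM, for members at 80% or above in DMSO replicate 1. The treated lines fall from 40.8% to 29.1% with gene number and climb from 28.6% to 41.7% with the level of the start.

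Germ cell genes, whose starts are methylated in body cells, fell in every window covered. All 16 windows covered (of 26 genes listed) were lower, beside 93.9% of the 6019 windows that were at 50% or above in both DMSO libraries. Their median went from 92.1% to 55.1%. Dazl, an RNA-binding protein of germ cells, was at 95.9% and 97.3% in DMSO and at 72.1% and 61.2% at 0.2 µM (adjusted p = 1.61e-04). Hormad1, printed above, was at 92.0% and 92.9% and at 49.3% in both treated libraries (adjusted p = 8.39e-05), and Tdrd1, a partner of the piRNA pathway, at 86.4% and 88.0% and at 56.2% and 58.0% (adjusted p = 7.88e-04). The ends of the range were Ddx4, an RNA helicase of the germ line, which went from 97.2% and 98.1% to 76.2% and 74.6%, and Stag3, a meiotic cohesin subunit, which went from 72.5% and 80% to 20.2% and 18.2%. These last 2 were chosen after their values were seen. The median retained share of the group was 61.2%, beside 44.5% over all windows at 50% or above. At that level it was also 63.3% in Hox genes (17 windows), 61.7% in other developmental factors (23 windows) and 69.2% in tumour suppressors (6 windows). In pluripotency genes it was 42.9% (7 windows). In the other lineage, B lineage and nucleoside lists it was 35.9% or less, from only 3, 2 and 1 windows. The lists were not matched for CpG density.

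Imprinted regions normally carry the mark on the allele of 1 parent. The windows lie at gene starts or ends, and whether they hold the imprinted region itself was not checked. Of 16 covered windows of imprinted genes with a maternally methylated region 8 were lower (50%), beside 36.0% of all windows. Their median was 79.4% in DMSO and 47.6% at 0.2 µM. Not all were near 50% in DMSO: Nap1l5 and Nnat averaged 99.1% and 97.9%, whereas Plagl1 and Gnas averaged 36.5% and 48.2%. Of the 11 at 50% or above in both controls 7 were lower (63.6%), beside 93.9% of all windows at that level. The median retained share of the 11 was 67.0%, beside 44.5%. Those not called were Airn, Peg10, Slc38a4 and Mest, with 10, 12, 18 and 45 reads in the least covered library. Airn changed by -31.6 points and was still not called (adjusted p = 0.0658). Among the 7 called the fewest reads were 16. Peg10, Slc38a4 and Mest changed by -12.5, -11.8 and -14.7 points. Whether depth or the size of the change lay behind the missing calls was not tested. Inpp5f, which is covered here at an unmethylated start, read 2.39% and 1.59% against 0.513% and 0.692%. Plagl1, a zinc finger gene, read 36.7% and 36.2% against 28.7% and 24.0% and did not pass the test (adjusted p = 0.0770). Zrsr1 read 42.8% and 65.2% against 32.0% and 29.0% (adjusted p = 0.00591), and the call was lost without DMSO replicate 2 (0.0612) and without 0.2 µM replicate 2 (0.129). The Gnas window, at 46.1% and 50.3%, read 33.5% and 41% and was not called (adjusted p = 0.212). All 5 windows of genes in domains with a paternally methylated region, of 4 genes, were lower. Their median was 79.3% in DMSO and 31.2% at 0.2 µM. Meg3 went from 91.5% and 88.2% to 49.0% and 54.6% (adjusted p = 0.00152) and Dlk1 from 70.6% and 71.4% to 36.6% and 25.9% (adjusted p = 0.00226). H19, a maternally expressed RNA, went at one gene end from 67.7% and 90.9% to 17.1% and 32.4% (adjusted p = 0.00330). Rasgrf1 went from 61.8% and 58.5% to 47.4% and 38.0% (adjusted p = 0.0280), a call lost without DMSO replicate 1 (0.0969), without 0.2 µM replicate 2 (0.291) and with a minimum of 20 reads (0.0542). The difference between the 2 lists of imprinted genes was not tested.

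The groups of other fates had higher medians in DMSO than all windows tested, at 3.71%. The Hox genes, which pattern the body axis, were lower in 36 of 46 windows (78.3%, median 34.8% to 15.3%), and other developmental transcription factors in 37 of 49 (75.5%, 53.3% to 28.6%), beside 36.0% of all windows. Of those at 50% or above in both controls, 17 of 17 Hox windows and 21 of 23 of the other factors were lower, near the 93.9% of all windows at that level. Nkx6-1 went from 74.1% and 74.7% to 55.1% and 56.4% (adjusted p = 6.62e-04). Sox9 went at one gene end from 40.8% and 39.4% to 21.1% and 22.4% (adjusted p = 5.30e-04). Neither had overlap between groups. Six2 went from 65.4% and 68.2% to 51.2% and 52.5% (adjusted p = 0.0129, lost without 0.2 µM replicate 1 at 0.0765 or replicate 2 at 0.0781). Hoxb2, a gene without strand here, went at one gene end from 35.4% and 35.9% to 19.9% and 21% (adjusted p = 0.00163). The other Hoxb2 end read 22.6% and 1.92% against 0% and 2.78% and was not called (adjusted p = 0.0568). Hoxa11 went from 25.5% and 23.4% to 15.8% and 13.3% (adjusted p = 0.0329), a call lost without 0.2 µM replicate 1 or replicate 2. Hoxb4 was unmethylated, at no more than 0.836% in any library.

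Pluripotency genes were lower in 9 of 11 windows (81.8%, beside 36.0% of all windows), with a median of 70.7% in DMSO and 26.4% at 0.2 µM. Of the 7 at 50% or above in both controls 6 were lower (85.7%, beside 93.9%). Tdh, a threonine dehydrogenase of mouse stem cells, went at one gene end from 49.8% and 44.3% to 26.7% and 26.0% (adjusted p = 0.00862). This call was lost without 0.2 µM replicate 2. Utf1, a chromatin protein of stem cells, kept more: 86.9% and 85.3% against 69.9% and 69.3% (adjusted p = 0.0126, lost without 0.2 µM replicate 1 at 0.0514 or replicate 2 at 0.0852). Klf4, a reprogramming factor, went from 13.6% and 13.3% to 7.0% and 8.28% (adjusted p = 0.0446), and this call was lost whichever library was left out, at 0.0753 and 0.0599 for the DMSO libraries and 0.217 and 0.126 for the treated ones.

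B lineage genes had little methylation to lose. Of their 17 covered windows 13 were under 10% in both DMSO libraries, beside 11009 of all 20403 windows. The median of the 17 was 0.962% in DMSO and 0.689% at 0.2 µM, and 4 were called lower (23.5%, beside 36.0% of all windows). Bach2, Foxo1 and Ikzf3 (at one gene end), 3 regulators of B cell development, read at most 4.71% in any library. The 4 called were named after their values were seen. Rag1, a subunit of the V(D)J recombinase, went from 45.5% and 44.1% to 2.44% and 10.0% (adjusted p = 0.00395). Spi1, which encodes the transcription factor PU.1, went at one gene end from 93.9% and 87.1% to 16.2% and 35.0% (adjusted p = 3.27e-04), and the kinase gene Btk from 47.1% and 53.8% to 5.26% and 15.0% (adjusted p = 0.0234), on as few as 13 reads. The Btk call was lost whichever library was left out, at adjusted p from 0.0591 to 0.127. Blk, a kinase of B cells, went at one gene end from 93.1% and 100% to 22.7% and 28.1% on as few as 14 reads.

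Genes of other lineages were lower in 10 of 14 windows (71.4%, beside 36.0% of all windows), with a median of 38.3% in DMSO and 8.36% at 0.2 µM. Cebpa, a myeloid transcription factor, went from 10.6% and 13.6% to 5.35% and 5.36% (adjusted p = 0.00878), lost without 0.2 µM replicate 1 at 0.0529 or replicate 2 at 0.0727. Tal1, a factor of blood stem and red cells, went from 31.7% and 40.9% to 13.5% and 20.8% (adjusted p = 0.00219, 0.0507 without 0.2 µM replicate 1). Tcf7, a T cell factor, read between 3.66% and 4.21% in all 4 libraries.

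Most genes that act on the drug or on methylation had unmethylated starts. Among 17 windows of the methylation machinery 13 were under 10% in both controls, beside 11009 of all 20403 windows. Of the 17 only 1 was lower (5.88%, beside 36.0% of all windows). That window was Tet1, a dioxygenase that oxidises methylated cytosine, at 41.6% and 30% in DMSO and 10.1% and 10.8% at 0.2 µM (adjusted p = 7.82e-04). Dnmt3b read 3.75% and 3.85% against 1.52% and 2.43%, and Uhrf2 14.7% and 11.1% against 6.5% and 8.97% (adjusted p = 0.258 and 0.0564). Of 11 windows of nucleoside transport and metabolism 2 were lower (18.2%). Slc29a1, the nucleoside transporter ENT1, went from 92.5% and 93.3% to 18.3% in both treated libraries (adjusted p = 6.90e-05). Cda, the deaminase that inactivates the drug, went from 20.2% and 27.8% to 6.22% and 10.9% (adjusted p = 0.00749), a call lost without DMSO replicate 2 (0.0603) or 0.2 µM replicate 1 (0.0944). Dck, the kinase that activates it, stayed at or under 0.610%, with Cmpk1 and Samhd1 at or under 0.90%.

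Interferon and innate immune genes had 11 of 13 windows under 10% in both controls, beside 11009 of all 20403 windows. Only 1 window, on chromosome 18, was lower (7.69%, beside 36.0% of all windows). Cgas and Adar read at most 3.73%. Of 21 tumour suppressor windows 8 were lower (38.1%, near the share of all windows). Under 10% in both controls were 13 of the 21, beside the same 11009 of 20403. Socs1 and, at one gene end, Rb1 stayed at or under 0.625%. Cdkn2a, which encodes p16 and p19ARF, went from 5.34% and 5.68% to 1.05% and 1.32% (adjusted p = 0.00730), lost without 0.2 µM replicate 1 (0.0586) or replicate 2 (0.0604). It was picked after its values were seen, as were Slc29a1, Cda and Tet1. No window of the 12 lists was called higher. A limma fit on log odds did not call 10 of the windows named as lower above. Its adjusted p was 0.0704 for Nkx6-1, 0.141 for Six2, 0.0641 for Hoxb2, 0.113 for Hoxa11, 0.0628 for Cebpa, 0.0554 for Tal1, 0.0598 for Utf1, 0.0993 for Zrsr1, 0.119 for Rasgrf1 and 0.133 for Klf4. Without 0.2 µM replicate 2 the listed windows called lower numbered 79, against 137 with all libraries.

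**Figure D4:**
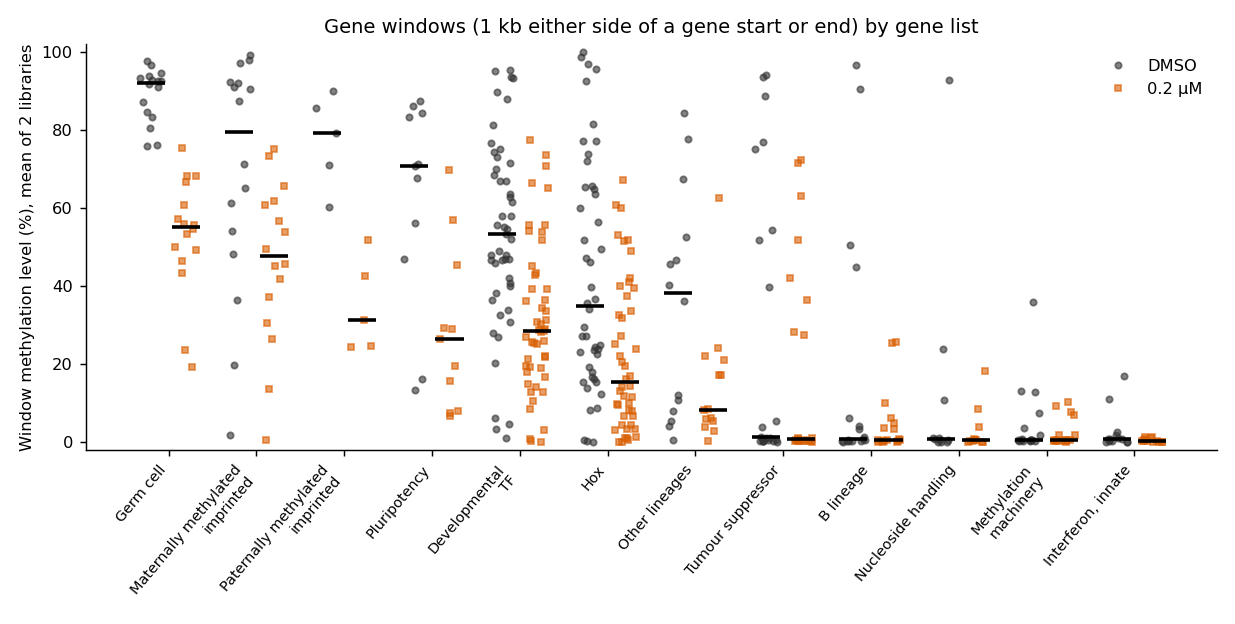
Methylation level (%, mean of the 2 libraries of a group) of each covered gene window, by gene list, in DMSO (circles) and at 0.2 µM (squares). Bars are medians over windows. Germ cell windows sit high in DMSO and fall to a median of 55.1%, whereas most B lineage, nucleoside handling, methylation machinery and interferon windows lie near 0 in both groups.

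Single tiles with at least 40 reads in each library showed the extremes. Only tiles in or near a gene were eligible to be named. The named tiles therefore cannot show whether the largest falls of the genome lie in genes. The largest falls among eligible tiles come first. In Elk3, an ETS repressor (chr10:93276001-93277000), the level went from 90.9% and 97.7% to 4.30% and 11.7%. In Rnf31, a subunit of the linear ubiquitin ligase (chr14:55596001-55597000), it went from 95.6% and 98.3% to 17.5% and 8.11%. Both lost more than 80 points. Tiles in Gramd1b (96.9% and 98.6% to 10.9% and 17.5%), the ETS repressor Erf (99.0% and 97.5% to 11.9% and 18.9%) and the MAX-binding repressor Mnt (97.2% and 100% to 18% and 13.9%) did the same. These 5 were called at adjusted p between 4.10e-08 and 8.46e-08 and stayed called without any single library, at no more than 0.0386. They held between 6 and 29 listed CpGs. Falls were named only where called lower with both treated libraries below both controls. The call and the lack of overlap between groups were thus fixed by the choice and add no support.

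Among 3286 such tiles at 80% or above in both DMSO libraries, 12 were not called lower. The highest retained share was at the start of Grb10, an imprinted growth inhibitor (chr11:12036001-12037000), at 86.4% and 85.9% in DMSO and 78.5% and 78.7% at 0.2 µM (adjusted p = 0.284). Asic2, an ion channel (92.9% and 91.9% against 85.0% and 83.2%), and Nrtn, the growth factor neurturin (97.6% and 100% against 92.5% and 84.6%), were called lower, but not once a library was left out (adjusted p from 0.117 to 0.208 and from 0.0503 to 0.246). Utf1, Tdrd5, a protein of the germ line piRNA pathway, and Fhl2 were next. Utf1 read 82.2% and 83.7% against 67.8% and 80.7%, Tdrd5 84.0% and 89.3% against 75.8% and 76.7%, and Fhl2 90.9% and 94.5% against 84.0% and 78.6%. The Tdrd5 tile held 82 listed CpGs and the other 5 between 7 and 18. The Grb10 and Utf1 tiles lie at gene starts, and the start windows of these genes held 155 and 73 listed CpGs. The Asic2, Nrtn and Fhl2 tiles lie away from gene starts. All these tiles were picked for their retained share, so they do not test the relation between density and retention.

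Over 247 gene bodies at 80% or above with at least 200 reads in each library, the treated level ran from 20.9% to 77.6% with a median of 39.4%. The lowest were Coro7 (83.2% and 84.7% to 21.8% and 20%), Ccdc88c (86.4% and 89.6% to 18% and 24.0%), Fbxo31 (90.5% and 90.7% to 20.3% and 22.1%) and Fam222a (85.1% and 80.8% to 23.0% and 20.6%), with 2.34 to 6.90 listed CpGs per kb. The highest were the small genes Insm2 (97.1% and 94.3% to 78.3% and 76.9%), Foxc2, a forkhead factor (96.2% and 97.3% to 76.1% and 78.0%), and Lor, which encodes the skin protein loricrin (90.4% and 90.1% to 70.7% and 73.9%), with 20.2 to 33.8 per kb. Gm10406, at 0.712 per kb, was with them, at 81.6% and 89.9% against 69.3% and 78.8%. Its call (adjusted p = 0.0189) was lost without DMSO replicate 2 (0.174) and without 0.2 µM replicate 1 (0.270).

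Crowded tiles on the X chromosome that were at 5 to 20% in DMSO kept nearly all of their methylation. Among X tiles with over 20 CpGs, the 165 at 5 to 20% in DMSO replicate 1 read 17.7% in DMSO replicate 2 and 16.5% and 17.6% at 0.2 µM, a retained share of 96.7% ± 4.42 (SD, n = 2). The 1539 autosomal tiles of that class went from 12.7% to 6.55% and 6.43%, a share of 51.3% ± 0.706. With the class set by DMSO replicate 2 the 116 X tiles read 17.2% in DMSO replicate 1 and 15.9% and 16.7% at 0.2 µM. The 20 X tiles under 5% in DMSO replicate 1 went from 9.39% in DMSO replicate 2 to 5.55% and 5.17%, a share of 57.1%, whereas the 31 under 5% in DMSO replicate 2 had a share of 98.7% ± 7.45 (SD, n = 2). X tiles at 20 to 40% kept 76.1% and autosomal ones 51.3%. At 60 to 80% the shares were 55.6% on the X and 57.2% on the autosomes, and at 80% or above 61.2% and 53.5%. In the sparse tiles (1 to 20 CpGs) at 80% or above the X kept 45.6% and the autosomes 37.2%. Whether the X differed from the autosomes was not tested, since all tiles come from the same 4 libraries.

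**Figure D5:**
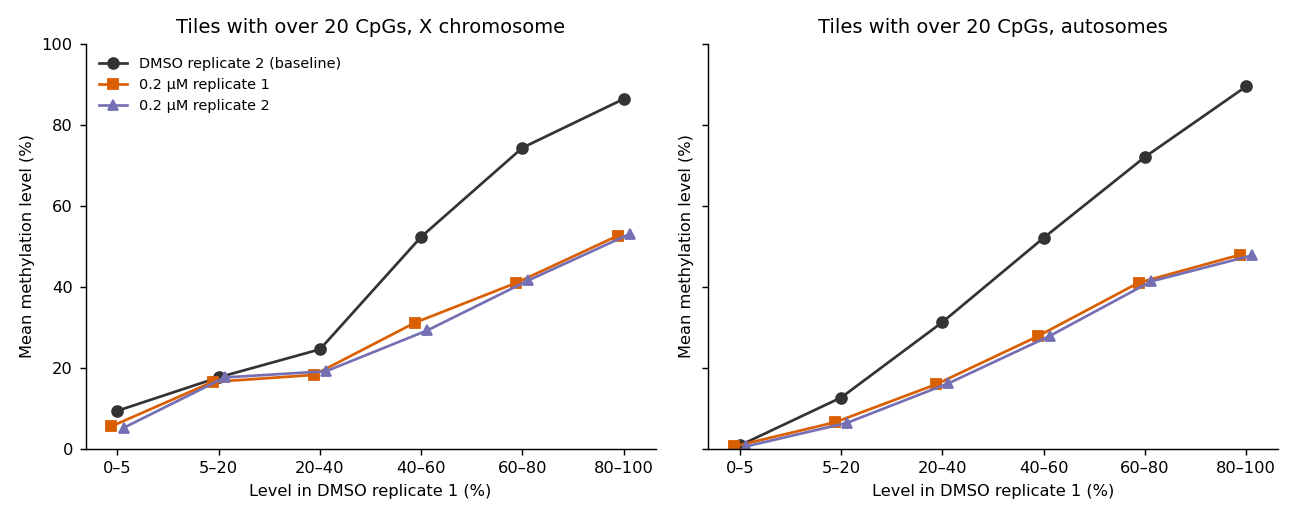
Mean methylation level (%) of tiles with over 20 listed CpGs by their level class in DMSO replicate 1 (horizontal axis), on the X chromosome (left) and the autosomes (right). Points are DMSO replicate 2 (baseline) and the 2 libraries at 0.2 µM. On the X the lines meet in the class at 5 to 20%, at 17.7%, 16.5% and 17.6%, whereas on the autosomes they lie apart, at 12.7%, 6.55% and 6.43%.

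Rises were rare. The 48 tiles called higher were picked in these same 4 libraries, so the values that follow describe them and add no support for a rise. Of the 48 tiles 44 had both treated libraries above both controls, 46 averaged under 20% in DMSO, and their median went from 7.32% to 22.6%. The X held 16 of them (33.3%) and 3.21% of the tiles tested. The largest was at the start of Fam50a (X:74313001-74314000), a splicing factor gene, at 9.66% and 0% in DMSO and 35.3% and 26.9% at 0.2 µM (adjusted p = 5.94e-04). Hmgb3 (15.0% and 10.5% against 37.8% and 18.8%) and Fam120c (5.49% and 8.91% against 21.1% and 23.6%) also lie on the X. The autosomal ones were Vamp9 (10.3% and 2.17% against 17.2% and 29.9%), Ttc34 (12.8% and 7.80% against 26.5% and 23.4%) and Agbl2 (34.0% and 61.2% against 67.9% and 62.7%), where the controls themselves lay far apart. At the start of Dkc1, an X-linked gene for the pseudouridine synthase dyskerin that was chosen after its values were seen, the window read 0% in both controls and 36.2% and 41.7% at 0.2 µM on 17 to 60 reads (adjusted p = 0.00280), and it stayed called without any single library, at no more than 0.0237.

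Most tile rises rested on both treated libraries together. Without 0.2 µM replicate 1, 4 of the 48 tiles were still called higher, and without replicate 2, 3 were. Fam50a had an adjusted p of 0.123 and 0.0765 in these fits, Agbl2 0.347 and 0.197 (and 0.770 without DMSO replicate 1), Vamp9 0.0628 and 0.218 (and 0.0902 without DMSO replicate 2), Fam120c 0.0628 and 0.124 (and 0.0716 without DMSO replicate 1) and Ttc34 0.104 and 0.0774 (and 0.100 without DMSO replicate 2). Hmgb3 was lost without any 1 library, at 0.0664 to 0.527. The limma fit on log odds called 19 of the 48.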

How the data were processed

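Methylation was measured by RRBS in 9 libraries, of which the 2 DMSO and 2 0.2 µM libraries were used. The deposited tables list each CpG with its methylated and total reads and, per the file itself, a score that the authors set to 1000 times the level, rounded down. Positions are on mm10, per the submitters' processing notes, and the sources used here name no aligner or caller. Between 1 and 2 lines per library of odd width, and 18 to 68 at repeated positions, were left out.

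Reads were summed per CpG (minimum 5 reads in each library), per 1 kb tile, per gene window and per gene body (minimum 10). The level of each unit was fitted with a binomial model of the reads in the 4 libraries, scaled by a quasi-likelihood dispersion that limma 3.58.1 (R 4.3.3) moderated across units with a trend on coverage and a floor of 1. After the files were seen, the prior was taken only from units at 10 to 90% in both groups, since units near 0 or 100% have almost no deviance. Adjusted p-values are Benjamini-Hochberg over all units of a kind, called under 0.05. Single values per library were compared with an exact permutation test. On data simulated with a log odds change of 1.5 in 200 units, 28 changed tiles, 96 windows and 120 bodies were called, with 0, 0 and 3 false calls.

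Gene ends, strands and promoter sequences came from RefSeq (GRCm38.p6), with strand for 27025 of 49943 genes. All 223578 listed positions inside promoters fell on a CG of the sequence. No genome was used, so CpG density counts listed positions, and exons were not separated. The local CpG count in 52 bases was added after the data were seen. DMSO replicates differed by 1.09 times the binomial variance and 0.2 µM replicates by 1.06 times, so reads set most of the error.

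Named tiles were the 6 with the largest falls, highest retained shares and largest rises. They were taken from tiles in or near a gene with at least 40 reads. Named falls had to be called, with both treated libraries below both controls. Named rises had to be called, with both treated libraries above both controls. Named bodies were the 4 lowest and highest with at least 200 reads. Named list windows were the 3 of each list with the most reads in the least covered library, leaving out chromosome 18. A few items that met these rules are not reported here. Other names were chosen after their values were seen. Members and lists were chosen with earlier results of these data known. Alternatives were other read minimums, limma on log odds, unscaled reads, all 9 libraries in the fit, a test against the median change, the replicate number as a block, and each library left out.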

Additional observations from a re-analysis of the deposited data

How the results depend on the processing

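Read minimums, the reference of the test and single libraries moved the counts of calls. Tiles lower numbered 75369 with a minimum of 5 reads, 25077 with 20 and between 28340 and 51369 without 1 library. Tiles higher numbered 164 with limma on log odds, 73 with reads not scaled, 19 with all 9 libraries in the fit, and 3 to 27 without 1 library. Windows lower stayed between 5156 and 7825 without 1 library, and listed windows lower between 79 and 122. Windows higher numbered 7 with a minimum of 20 reads, 39 with limma, 29 with reads not scaled, and 6 to 26 without 1 library. Bodies higher numbered 10 with all 9 libraries and 5 to 17 without 1. Against the median change the calls were 9321 lower and 3410 higher for tiles, 2653 and 182 for windows (28 lower among those listed), and 2921 and 3030 for bodies. There the Utf1 tile (adjusted p = 0.0348, limma), the Lor body (0.0259) and the Gm10406 body (0.00243) lay on the other side, having lost less than the median, and 22 of the 28 named windows called lower or higher no longer passed. The cause of these moves was not tested, except that a higher read minimum leaves fewer units.

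The retained share of the densest minus the sparsest tiles was 14.7 points over 5 classes of equal tile number, 34.9 with a minimum of 20 reads and 29.1 with 40, and 37.1 to 37.4 without 1 library. Mean levels kept their direction under every alternative run, from -14.5 to -9.39 points for CpGs and -37.1 to -32.7 for tiles without 1 library. A fit without 1 library leaves a group with a lone sample, which is assumed to vary like the other group. Directions were compared only where at least one setting passed the test.

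With the replicate number as a block, 50683 tiles were lower and 69 higher, 7103 windows lower and 8 higher, 12823 bodies lower and 17 higher, and 132 listed windows lower. The replicate block left the mean differences at -9.48 and -32.8 points (exact p = 0.5). Replicate differences of the groups did not move together (r = 0.00055 over tiles, -0.0296 over windows and -0.0097 over bodies). Since reads set most of the error, this cannot show whether libraries of the same number share a batch. Depth limits unmethylated starts, where a fall cannot be seen below a level near 0.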
